A study of Mus musculus with 8 samples.

Results

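The genes described here encode the chains of the MHC class II molecules of the mouse and the chaperones that load them with peptide: H2-Aa, H2-Ab1, H2-Eb1, H2-DMa, H2-DMb1, H2-DMb2, H2-Oa, H2-Ob and Cd74. They were measured in germinal centre B cells of the light zone and of the dark zone. The members were every probe set that carries 1 of these 9 symbols and no other in the platform's annotation. This gave 8 of the 9 genes, out of 18193 genes that the array names, with 16 of its 45037 probe sets. H2-DMb1 has no probe set of its own symbol, because both probe sets that detect it are annotated to H2-DMb2 as well. H2-Aa has 4 probe sets, H2-Ab1 and H2-DMb2 have 3 each, H2-DMa has 2, and the other 4 genes have 1 each.

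All samples came from C57BL/6 mice. The mice received NP-KLH, a hapten on a carrier protein, with alum under the skin, and lymph nodes were taken 12 days later. Germinal centre B cells (B220+CD38-CD95+) were sorted into 4 samples titled light zone and 4 titled dark zone, and total RNA of each was hybridised to 1 Affymetrix array. The labels call the 4 samples of a zone biological replicates and do not give the number of animals behind each, nor the ages of the mice.

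MHC class II molecules are pairs of an alpha and a beta chain that show peptides from endocytosed proteins to CD4 T cells. In the endoplasmic reticulum the invariant chain, encoded by Cd74, fills the groove of the new pair and takes it to endosomes, where proteases trim it to a short remnant. H2-DM, a class II-like pair of H2-DMa with an H2-DMb chain, then exchanges that remnant for antigen peptides, and H2-O, the pair of H2-Oa and H2-Ob found mainly in B cells, restrains H2-DM. In the germinal centre, B cells in the light zone take up antigen through their receptor and present it to follicular helper T cells, whose help decides which cells continue.

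The sort gate in the labels reads CXCR4hi/CD83lo for the light zone and CXCR4lo/CD83hi for the dark zone, the reverse of the usual definition. The mRNA of both gate genes went with the titles rather than with that wording: Cd83 was higher in every light zone array (7158 to 7631 against 1363 to 1624) and Cxcr4 in every dark zone array (1418 to 1677 against 758 to 854). Of the other genes of the gate, Fas (CD95) was at -0.23 and Ptprc (the gene of B220) at -0.21, both called higher in the light zone on the scale used below, and Cd38 has no probe set of its own. Groups were therefore taken from the titles, and light zone and dark zone mean the arrays with those titles. Values are RMA intensities on a linear scale, whose median lay between 27.3 and 28.1 in the 8 arrays and whose maximum lay between 24062 and 25362. Fewer mRNA molecules per cell and fewer cells that carry them cannot be told apart in such bulk samples.

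Class II genes share a promoter module in which an X box lies upstream of a Y box, an inverted CCAAT element. RFX factors bind the X box, NF-Y binds the Y box, and the coactivator CIITA is recruited to them. Windows from 250 bases before to 50 after the annotated start were taken from RefSeq (GRCm38.p6) for the members, of which 7 genes matched with 8 windows. H2-DMa has 2 windows, and H2-Ab1 and Cd74 have none in the table used. The sequences below are those of the I-A and I-E chain genes with a window, of both H2-O genes and of 1 H2-DMb copy, so that the module can be compared between genes that changed by different amounts. Each runs 5′ to 3′ on the strand of its gene. Capitals mark matches, on either strand, to AGCAAC (X box core), to CTGATTGG (Y box) and to ATTGG (inverted CCAAT core, which lies inside CTGATTGG).
H2-Aa (chr17:34287774-34288073, - strand): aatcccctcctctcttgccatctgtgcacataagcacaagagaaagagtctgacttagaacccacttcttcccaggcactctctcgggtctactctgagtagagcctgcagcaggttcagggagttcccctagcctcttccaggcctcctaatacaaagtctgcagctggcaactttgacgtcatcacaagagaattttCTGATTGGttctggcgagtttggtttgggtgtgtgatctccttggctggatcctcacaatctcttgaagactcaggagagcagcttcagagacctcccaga
H2-Eb1 (chr17:34305617-34305916, + strand): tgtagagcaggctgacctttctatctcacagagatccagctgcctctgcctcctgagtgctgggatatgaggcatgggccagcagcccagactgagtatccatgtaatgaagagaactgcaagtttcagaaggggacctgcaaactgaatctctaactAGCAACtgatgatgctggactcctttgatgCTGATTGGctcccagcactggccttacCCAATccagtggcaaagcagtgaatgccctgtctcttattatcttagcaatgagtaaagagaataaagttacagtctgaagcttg
H2-Oa (chr17:34092129-34092428, + strand): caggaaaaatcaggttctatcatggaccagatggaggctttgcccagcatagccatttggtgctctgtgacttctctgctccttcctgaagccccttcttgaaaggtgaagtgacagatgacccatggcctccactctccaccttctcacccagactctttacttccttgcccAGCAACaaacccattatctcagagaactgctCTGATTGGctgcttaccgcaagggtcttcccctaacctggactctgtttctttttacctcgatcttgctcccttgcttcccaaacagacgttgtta
H2-Ob (chr17:34238655-34238954, + strand): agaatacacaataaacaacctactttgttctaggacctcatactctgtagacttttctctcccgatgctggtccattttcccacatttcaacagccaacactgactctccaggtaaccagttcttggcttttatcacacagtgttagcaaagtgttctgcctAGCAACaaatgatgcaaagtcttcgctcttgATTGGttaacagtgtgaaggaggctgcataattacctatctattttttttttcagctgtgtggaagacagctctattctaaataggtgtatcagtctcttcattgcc
H2-DMb2 (chr17:34144999-34145298, + strand): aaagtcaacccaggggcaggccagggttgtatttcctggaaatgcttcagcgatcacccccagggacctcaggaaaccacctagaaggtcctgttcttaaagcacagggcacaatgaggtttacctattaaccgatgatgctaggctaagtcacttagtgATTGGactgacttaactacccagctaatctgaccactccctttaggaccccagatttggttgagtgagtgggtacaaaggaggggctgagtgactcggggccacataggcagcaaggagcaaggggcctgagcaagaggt

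An ATTGG core was found in a window of all 7 genes. It is common, since 37.4% of the 32851 windows in the table hold it on 1 strand or the other. The longer CTGATTGG occurred in H2-Aa, H2-Eb1 and H2-Oa, and in 4.1% of all windows. AGCAAC occurred in H2-Eb1, H2-Oa and H2-Ob, and in 14.8% of all windows. In these 3 genes AGCAAC was followed on the same strand by ATTGG at a distance of 33, 34 and 31 bases, counted from the first letter of one to the first letter of the other. That order with a distance of at most 40 bases was present in 168 windows, or 0.511% of all. In H2-Oa the AGCAAC began 77 bases before the start and the CTGATTGG 46 bases before it. Only exact matches were sought, so a window without a match can still hold a variant of that box. These matches describe the letters in the windows and were not related to the expression values by any test.

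**Figure D1:**
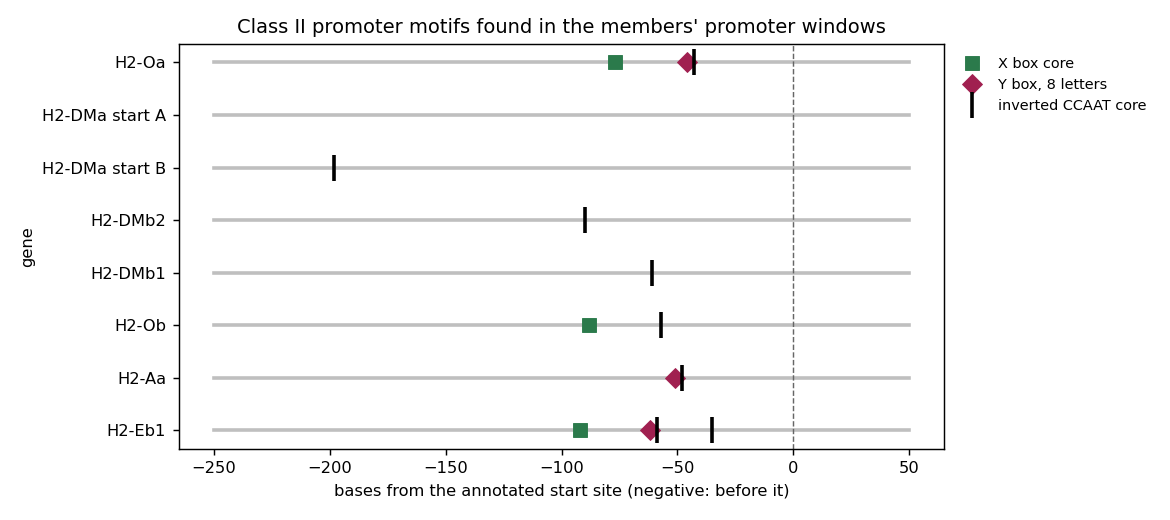
Positions of the motif matches in the promoter windows of 7 member genes, with distance in bases from the annotated start on the horizontal axis and 1 line per window (H2-DMa has starts A and B). Squares are AGCAAC, diamonds CTGATTGG and black bars ATTGG. H2-Eb1, H2-Oa and H2-Ob show a square followed by a bar at 31 to 34 bases, while the windows of H2-DMb1 and H2-DMb2 show a bar alone. Only exact matches are drawn, so a missing square does not mean a missing X box.

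Every class II member that could be tested was higher in the light zone. Taking the brightest probe set of each gene, 8 of 8 genes passed limma's test at an adjusted p under 0.05, all in that direction, whereas 24.8% of the 10547 genes tested were called in that direction and 43.9% in either. None was called higher in the dark zone, where 19.1% of all genes were called. By these probe sets the folds ran from 1.14 for H2-Aa to 1.97 for H2-Oa. The median log2 difference (dark zone minus light zone, as for every difference given here) was -0.41, against -0.01 over all genes tested. In all 8 the arrays of the zones did not overlap with the light zone the higher, which holds for 23.2% of all genes tested (41.3% with either zone the higher). Over the 16 member probe sets, each tested in a separate fit of all 45037, 14 were called for the light zone and 2 were not called. In that fit 11.3% of all probe sets, and 20.1% of those as bright as the filter required, were called for the light zone, and 10.5% of all for the dark zone. Arrays did not overlap for 15 of the 16, with the light zone the higher, beside 11.8% of all probe sets and 20.5% of those as bright as the filter required. The mean was higher in the light zone for all 16 probe sets, with a median difference of -0.55 and a range from -0.11 to -1.08. All 16 were above the filter on dim probe sets, an intensity of 27.8, in the means of both zones, so no member passed it through 1 zone only. The dimmest probe set gave a larger difference than the brightest in H2-Aa, H2-Ab1 and H2-DMa, and a smaller one in H2-DMb2. Whether intensities near the array maximum understate the folds was not tested.

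**Figure D2:**
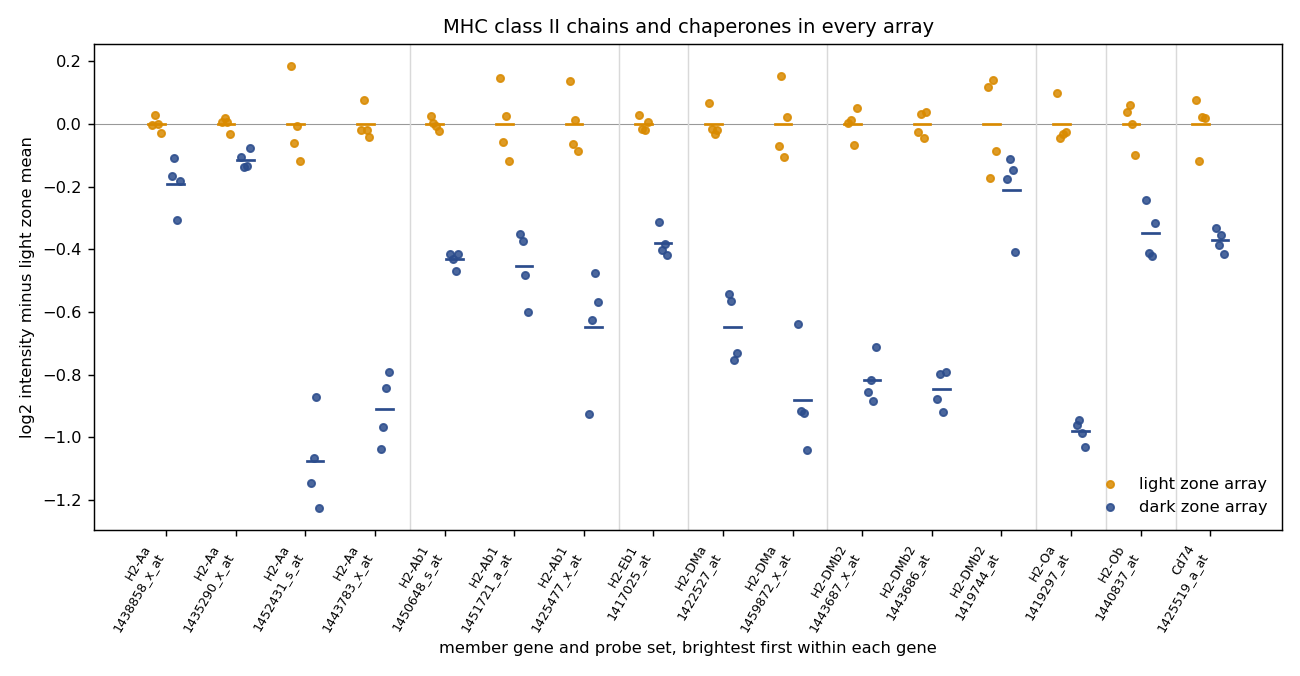
Each point is 1 array (orange light zone, blue dark zone, 4 each) for the 16 member probe sets, as log2 intensity minus the mean of the light zone arrays of that probe set; short lines are zone means. The zones are apart for 15 of 16 probe sets and overlap in the dimmest of H2-DMb2, and the 4 probe sets of H2-Aa split into 2 with small and 2 with large differences.

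The chains of I-A and I-E came first, of which only I-A reaches the cell surface in these mice. H2-Ab1 encodes the I-A beta chain. Its brightest probe set read 11752, 11565, 11505 and 11381 in the light zone arrays and 8672, 8561, 8350 and 8661 in the dark zone arrays. The lowest light zone array stood well above the highest dark zone array. The log2 difference was -0.43 (SE 0.05, limma adjusted p = 3.9e-05), with means of 11551 ± 155 and 8561 ± 149 (SD, n = 4). The other probe sets of H2-Ab1 gave -0.45 (adjusted p = 0.00085 in the limma fit of all probe sets) and -0.65 (adjusted p = 2.0e-04 in the same limma fit). The 3 had the same direction, and the dimmest gave the largest difference.

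H2-Eb1 encodes the I-E beta chain. It read 12395, 12016, 11981 and 12204 in the light zone and 9781, 9195, 9312 and 9085 in the dark zone. The zones were again apart. The difference of -0.38 (SE 0.05, limma adjusted p = 0.00015) was close to that of H2-Ab1. Mice of the b haplotype such as C57BL/6 lack a working gene for the I-E alpha chain, H2-Ea, which the RefSeq table lists as a transcribed pseudogene, and so carry no I-E on the surface. The brightest of its 3 probe sets read 80.0 to 108 in the light zone and 81.4 to 122 in the dark zone, which overlap, with a difference of 0.07 (SE 0.13, limma adjusted p = 0.69). The other probe sets of H2-Ea had zone means of 22.9 in both zones and of 10.4 and 10.6, below the filter. H2-Ea is not a working gene in this strain and read far lower than H2-Eb1. Its lack of a difference is therefore no comparison between the partner chains.

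H2-Aa, the I-A alpha chain, depended on the probe set. Its brightest read 14648, 14983, 14686 and 14400 in the light zone and 13092, 13604, 11878 and 12936 in the dark zone. The zones did not overlap, and the difference was -0.19 (SE 0.06, limma adjusted p = 0.022). That call was lost without light zone replicate 2 (limma adjusted p = 0.051), without dark zone replicate 3 (0.066, difference -0.15) and after a repeated quantile normalization (0.066), and it was just kept without light zone replicate 3 (0.0496). The next brightest gave -0.11 and did not pass in the limma fit of all probe sets (adjusted p = 0.19; 95% interval -0.24 to 0.01).

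Far larger differences came from the other probe sets of H2-Aa. The third brightest read 7111, 5995, 6231 and 5765 in the light zone and 2828, 2989, 3423 and 2676 in the dark zone, a difference of -1.08 (SE 0.09, limma adjusted p = 1.5e-06 over all probe sets). This is a fold of 2.11, the largest of the 16 member probe sets. The dimmest gave -0.91 (SE 0.07). The 95% intervals of the former pair, -0.33 to -0.06 and -0.24 to 0.01, did not touch those of the latter, -1.27 to -0.89 and -1.06 to -0.76. With all 4 averaged, H2-Aa differed by -0.57 (limma adjusted p = 1.7e-06). The direction for H2-Aa was the same in all 4 probe sets, and its size was not settled. All 4 carry a suffix of the platform, _x or _s, that marks probes which can also match related transcripts. The part of that in the disagreement was not tested. The brightest probe sets of H2-Ab1 (_s) and H2-DMb2 (_x) carry such a suffix too, as do the dimmest of H2-Ab1 and H2-DMa (_x).

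Cd74, the invariant chain, has 1 probe set. It read 6606, 5767, 6367 and 6342 in the light zone and 4974, 4797, 4895 and 4699 in the dark zone. Every light zone array was above every dark zone array. The difference was -0.37 (SE 0.06, limma adjusted p = 0.00038), with means of 6271 ± 356 and 4841 ± 119 (SD, n = 4). The size was like that of H2-Ab1 and H2-Eb1: the log2 ratio of Cd74 to H2-Ab1 within an array changed by 0.06 between the zones (light zone -0.88 ± 0.08, dark zone -0.82 ± 0.05, SD, n = 4; two-sided exact permutation p = 0.257), and the arrays overlapped.

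The genes of the peptide exchanger H2-DM were also higher in the light zone. H2-DMa, its alpha chain, read 2583, 2441, 2414 and 2433 in the light zone and 1695, 1666, 1464 and 1487 in the dark zone. No arrays overlapped, and the difference was -0.65 (SE 0.07, limma adjusted p = 9.3e-06). Its dimmer probe set went from a mean of 392 ± 32.5 to 213 ± 26.2 (SD, n = 4), a difference of -0.88.

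The mouse has H2-DMb1 and H2-DMb2, neighbouring and closely related genes for the beta chain. The brightest probe set of H2-DMb2 read 6072, 6122, 5792 and 6279 in the light zone and 3352, 3442, 3289 and 3705 in the dark zone. These groups were far apart, with a difference of -0.82 (SE 0.06, limma adjusted p = 6.3e-07), and the next brightest gave -0.85. The dimmest read 1075 to 1337 in the light zone and 914 to 1122 in the dark zone, which overlap, and its difference of -0.21 did not pass (limma adjusted p = 0.12 over all probe sets). The probe sets annotated to both copies gave -0.89 (limma adjusted p = 7.9e-07) and -0.49 (limma adjusted p = 0.00075). They cannot be assigned to either gene, so nothing is known here of H2-DMb1 by itself, and signal from H2-DMb1 in probe sets named for H2-DMb2 cannot be told apart.

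H2-O, the restraint on H2-DM, held the genes with the largest and nearly the smallest difference. H2-Oa, its alpha chain, read 2341, 2120, 2138 and 2146 in the light zone and 1123, 1135, 1103 and 1070 in the dark zone. The dark zone arrays lay close together and none came near a light zone array. The difference was -0.98 (SE 0.06, limma adjusted p = 9.4e-08), with means of 2186 ± 103 and 1108 ± 28.7 (SD, n = 4). H2-Ob, its beta chain, read 5677, 5770, 5539 and 5165 in the light zone and 4681, 4156, 4134 and 4449 in the dark zone. These did not overlap either, but the difference was -0.35 (SE 0.06, limma adjusted p = 0.0010). A probe set annotated both to H2-Ob and to the predicted gene Gm20506 gave 0.10 (limma adjusted p = 0.56 over all probe sets) with overlapping arrays.

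Ordered by their brightest probe sets, the differences ran from H2-Oa (-0.98) over H2-DMb2 (-0.82) and H2-DMa (-0.65) to H2-Ab1 (-0.43), H2-Eb1 (-0.38), Cd74 (-0.37), H2-Ob (-0.35) and H2-Aa (-0.19). The 95% intervals of neighbours in this order overlapped in every case. Those of H2-Oa (-1.11 to -0.85) and of H2-DMb2 (-0.95 to -0.68) lay below those of H2-Ab1 (-0.55 to -0.32), H2-Eb1, Cd74, H2-Ob and H2-Aa. The order rests on the choice of probe set, since with averaged probe sets H2-Aa stood at -0.57, H2-DMa at -0.76 and H2-DMb2 at -0.62. The interval of the dimmest probe set of H2-Ab1 (-0.85 to -0.45) overlapped that of H2-DMb2.

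Unequal changes were examined as log2 ratios between 2 members within each array, for 7 pairs. The level of such a ratio depends on the probes and has no meaning. Its change between the zones can be read, but its size, and in some pairs its direction, also depended on the probe sets used. H2-Oa relative to H2-Ob was -1.28, -1.44, -1.37 and -1.27 in the light zone and -2.06, -1.87, -1.91 and -2.06 in the dark zone, a change of -0.63. H2-Oa relative to H2-DMa was -0.14, -0.20, -0.18 and -0.18 in the light zone and -0.59, -0.55, -0.41 and -0.48 in the dark zone, a change of -0.33. H2-Ob relative to H2-DMb2 moved the other way, by 0.47, from a range of -0.28 to -0.06 to a range of 0.26 to 0.48. In these 3 pairs the zones did not overlap. By the brightest probe sets, the difference of H2-Oa was larger than that of H2-DMa, while that of H2-Ob was smaller than that of H2-DMb2. The dimmest probe set of H2-DMb2 (-0.21) differed by less than H2-Ob (-0.35). Each of the 3 pairs had p = 0.0286 (exact permutation of the zone titles, 70 arrangements, two-sided), the smallest this design allows. After Benjamini-Hochberg adjustment over the 7 pairs it was 0.05, which is not under the threshold. With averaged probe sets the changes were -0.63, -0.22 and 0.28.

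The chains of I-A gave no settled imbalance, nor did H2-Eb1 with H2-Ab1 or H2-DMa with H2-DMb2. H2-Aa relative to H2-Ab1 changed by 0.24 (exact permutation p = 0.0286, adjusted 0.05) with the brightest probe sets, and by -0.06 (exact permutation p = 0.0857) with averaged ones, so its direction reversed. H2-Eb1 relative to H2-Ab1 changed by 0.05 (exact permutation p = 0.114), and H2-DMa relative to H2-DMb2 by 0.17 (exact permutation p = 0.0857) or, with averaged probe sets, by -0.14.

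**Figure D3:**
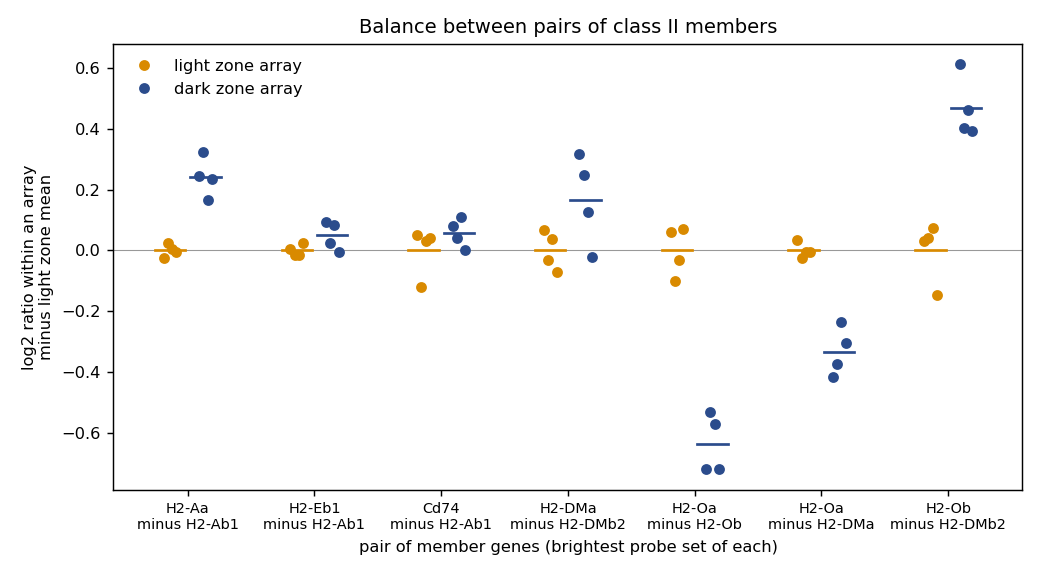
Log2 ratio of the brightest probe sets of 2 members within each array, minus the mean of the 4 light zone arrays (orange light zone, blue dark zone; short lines are zone means). The dark zone arrays lie below the light zone arrays for H2-Oa against H2-Ob and against H2-DMa, and above them for H2-Ob against H2-DMb2 and H2-Aa against H2-Ab1, while the other 3 pairs overlap.

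The regulators of class II transcription did not all follow the chains. Of 8 tested, 5 were called for the light zone (background 24.8%), 1 for the dark zone (19.1%) and 2 did not pass, with a median of -0.20. Ciita, the class II transactivator, read 1211 to 1328 in the light zone and 534 to 631 in the dark zone, a difference of -1.15 (SE 0.07, limma adjusted p = 9.4e-08). Its 2 dimmer probe sets gave -0.27 and -0.50. Rfx5, the DNA-binding subunit of the RFX complex, differed by -0.78 (SE 0.07). The RFX partner Rfxank differed by only -0.21 (SE 0.05), and Rfxap was at 0.04 (SE 0.07, limma adjusted p = 0.65). The NF-Y subunits parted: Nfya was at -0.61 (SE 0.09), Nfyb rose in the dark zone by 0.56 (SE 0.07) and Nfyc was at 0.15 (limma adjusted p = 0.064). The dimmer probe set of Nfyb gave 0.20 and did not pass (limma adjusted p = 0.15 over all probe sets). Averaging probe sets ended the calls of Nfya (-0.15), Rfxank (-0.04) and Creb1 (-0.13). For Nfya, all probe sets but the brightest lay below the filter, so its average rests mostly on dim signals. Creb1, a factor of the X2 element, was at -0.19 (limma adjusted p = 0.043) and lost its call when any 1 array was left out, except replicate 2 of the light zone and replicate 4 of the dark zone.

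Genes that process antigen or control the life of class II molecules were mostly higher in the light zone as well. Of 10 tested, 7 were called for the light zone (background 24.8%) and 2 for the dark zone, a share like the background of 19.1%, with a median of -0.26. Ifi30, the thiol reductase that opens disulfide bonds of antigens, read 4175 to 4597 in the light zone and 1261 to 1396 in the dark zone, a difference of -1.70 (SE 0.06, limma adjusted p = 2.6e-09). This is larger than that of any member. Cathepsin S (Ctss), which cuts the invariant chain in B cells, was at -0.46 (SE 0.09), and cathepsin H (Ctsh) at -0.45 (SE 0.05).

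Marchf1, the ubiquitin ligase that marks class II molecules for removal from the surface, was higher in the dark zone. It read 930, 720, 819 and 713 in the light zone and 1277, 1266, 1348 and 1178 in the dark zone. All dark zone arrays were above all light zone arrays, by 0.68 (SE 0.09, limma adjusted p = 6.0e-05). Another of its probe sets gave 0.66, and the last, with a mean of 14.9 in both zones, lay below the filter. Lgmn, the asparagine endopeptidase, was also higher in the dark zone, by 0.32 (SE 0.08). Sppl2a, the protease that clears the stub of the invariant chain, gave -0.28 with its brightest probe set and 1.04 with another (limma adjusted p = 2.2e-05 over all probe sets). Its average was 0.23, so its direction was not settled. Cathepsin B (Ctsb) changed from -0.30 to 0.05 with averaged probe sets. Over the regulators and processing genes together, 12 of 18 tested were called for the light zone (background 24.8%) and 3 for the dark zone, near the background of 19.1%. With averaged probe sets these were 7 and 5, where 24.6% and 22.4% of all genes tested that way were called. These counts are not out of the same 18 genes, since Ctsl fell below the filter when averaged.

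**Figure D4:**
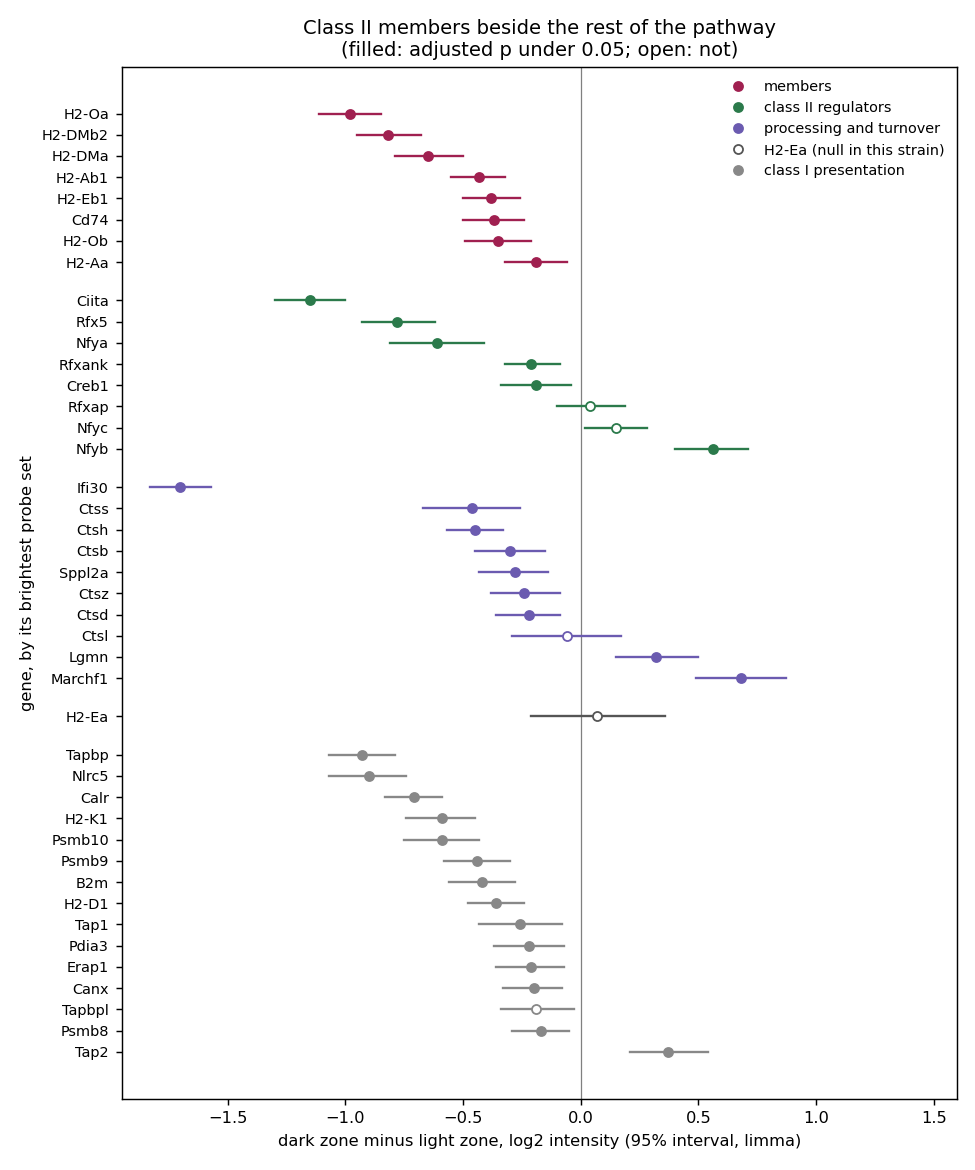
Dark zone minus light zone difference in log2 intensity with its 95% interval from limma, for the brightest probe set of each tested gene; filled points have an adjusted p under 0.05. All 8 members lie left of 0, from -0.98 to -0.19, Marchf1 (0.68), Nfyb (0.56) and Lgmn (0.32) lie to the right, and H2-Ea lies at 0.07.

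The light zone was also the higher one for presentation by MHC class I, the molecules that show cytosolic peptides to CD8 T cells. Of 15 genes tested, 13 were higher in the light zone (background 24.8%), Tap2, a subunit of the peptide transporter, was higher in the dark zone by 0.37, and Tapbpl did not pass. The median was -0.36, beside -0.41 for the class II members. By the brightest probe sets, the largest differences were in the peptide loading factor Tapbp (-0.93, SE 0.07), the class I transactivator Nlrc5 (-0.90, SE 0.08), calreticulin (Calr, -0.71, SE 0.06) and the heavy chain H2-K1 (-0.59, SE 0.07). The dimmer probe set of Tapbp gave -0.17 and did not pass (limma adjusted p = 0.079 over all probe sets). Those of H2-K1 gave -0.40, -0.27 (not passed, limma adjusted p = 0.052 over all probe sets) and -0.42, and those of Calr -0.65 and -0.71. Whether the class II members differ from this list was not tested, so the shift is not called particular to class II. With replicate 1 of the light zone left out, 9 of the 15 were called for that zone. Averaged probe sets gave 11, with the calls of Pdia3 (-0.13) and Tap1 (-0.03) lost. All probe sets of Tap1 but its brightest lay below the filter, so its average rests mostly on dim signals. H2-Eb2, a further class II beta chain gene named here after its values were seen, was at -0.60 (SE 0.07, limma adjusted p = 2.1e-05).

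The profile of the members over the 8 arrays was shared by many genes. The mean of the centred log2 values of the 8 tested members was most like those of Swap70, Snn, Gas5, Abhd11 and Sdc4 among 10469 genes outside the lists, with Pearson correlations of 0.9954 to 0.9985 over 8 arrays. The points share the 2 zones, which set most of such a correlation, and 644 genes reached 0.95. The differences of these 5 genes were -0.56 for Swap70, -2.64 for Snn, -0.69 for Gas5, -1.49 for Abhd11 and -1.14 for Sdc4, so a like profile came with very unlike sizes.

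Class II molecules are also abundant in dendritic cells, macrophages and other B cells, so markers of these cells are given beside the result. The sort, B220+CD38-CD95+, is meant to leave out T cells, macrophages and most dendritic cells through B220, and naive and memory B cells, which carry CD38 in mice, through CD38. Of 7 dendritic cell markers measured, 4, among them Itgax, Xcr1 and Cd209a, had a mean below the filter, and the summed intensity of the list was 716 to 827 in light zone arrays and 664 to 887 in dark zone arrays. Ccr7 was the only one of them whose arrays did not overlap (light zone mean 35.7, dark zone mean 14.2). Of 8 macrophage and monocyte markers, 4 were below the filter, and the sum was 230 to 283 in the light zone and 318 to 1051 in the dark zone, higher in the zone where the class II members were lower. Lyz2 made most of that, with a mean of 53.0 against 470, and Csf1r followed it (39.1 against 52.1), while Cd68 was higher in the light zone (58.8 against 44.9). The T cell sum was 190 to 198 and 181 to 193, with 6 of 8 markers below the filter. The follicular dendritic cell sum was 255 to 342 and 274 to 281, with 3 of 6 below it.

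Markers of other B cells moved with the class II members. All 4 measured genes of naive or memory B cells, Fcer2a, Ccr6, Gpr183 and Klf2, were higher in every light zone array, as were 23.2% of all genes tested. Their sum was 3268 to 3665 in light zone arrays and 711 to 811 in dark zone arrays. The sum over 6 general B cell markers was 24234 to 25315 in the light zone and 21090 to 21574 in the dark zone. Cd22 made most of that gap (mean 7500 against 4747). In 3 of them, Ms4a1, Cd22 and Blk, the arrays did not overlap, beside 23.2% of all genes tested. The test called 2 for the light zone, Cd22 and Blk, beside 24.8% of all genes tested. The sum over 6 germinal centre markers was lower in the light zone, at 11918 to 12520 against 14524 to 15250, but its members split. Gcsam (888 against 2472), Mybl1 (1780 against 2989) and S1pr2 were called higher in the dark zone (background 19.1%). Fas and Rgs13 were called for the light zone (background 24.8%), and Bcl6 did not pass. The plasma cell sum (5 markers) was 10751 to 12069 in light zone arrays and 11722 to 12263 in dark zone arrays, and most of it was Jchain (mean 8192 against 9095). Below that sum, Irf4 (239 against 59, difference -2.03) and Prdm1 (45.4 against 17.6, difference -1.37), which B cells also switch on when activated, were higher in every light zone array, as the class II members were. The part of other cells in the differences of the class II members was not tested.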

How the data were processed

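Gene expression was measured on Affymetrix 3' arrays in 8 samples, 4 titled light zone and 4 titled dark zone. The deposited table holds intensity after RMA, not log transformed. The submitters' processing notes name RMA, with no version, and the scale was read from the values. Their log2 was taken, with no pseudocount.

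Of 45037 probe sets, 34945 carry 1 symbol in the platform annotation. The brightest probe set on average stood for its gene, and 10547 genes whose average was at least the median of the probe set averages (27.8) were tested. Zones were compared with limma 3.58.1 in R 4.3.3 (lmFit, eBayes, two-sided, Benjamini-Hochberg adjusted p under 0.05 over all genes tested). A second limma fit took all 45037 probe sets with no filter. The number of arrays limits precision, and RMA hides changes in total RNA per cell. Ratios between members were tested by exact permutation with SciPy 1.17.1. The 2 planned ratios with H2-DMb1 were replaced by ratios with H2-DMb2 after the data were seen.

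The named genes are all members, Ciita, H2-Ea, the genes of the gate, the 4 largest called differences of each list and those that ran against it, and the 5 genes most like the members. Some other genes of the lists are named where their call changed, but not every gene whose call changed is named. Members and lists were chosen with earlier results of these data known. The fit was checked on simulated data with the spread of the 10547 genes, where 6% of 168 calls were of unchanged genes. Far fewer genes were changed there than were called in these data, so the check does not give the error rate of these calls. Alternatives varied the filter, probe set, normalization, variance model, weights, block, threshold and arrays. Promoter windows came from RefSeq (GRCm38.p6). Figures were drawn with matplotlib 3.10.9.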

Additional observations from a re-analysis of the deposited data

Results flagged for a closer look

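A single array stood apart from the other 3 of its zone in 12 of 114 groups of 4 arrays examined over the members, their ratios and the other presentation genes, by a gap that made up most of the range of the group. Chance gives about 1 in 20 such groups, or 5.7. Light zone replicate 1 was the array in 5 of them: it was high for H2-DMa (2583, others 2414 to 2441), H2-Oa (2341, others 2120 to 2146), Tap1 (1256, others 1073 to 1095) and Erap1 (222, others 198 to 200), and low for H2-Ea (80, others 104 to 108). Light zone replicate 2 was low for the log2 ratio of Cd74 to H2-Ab1 (-1, others -0.85 to -0.83), for Rfxap (182, others 194 to 196) and for Nfyb (567, others 600 to 605). Light zone replicate 4 was low for the ratio of H2-Ob to H2-DMb2 (-0.28, others -0.10 to -0.06). Dark zone replicate 2 was high for B2m (7089, others 6237 to 6368) and low for Calr (2222, others 2387 to 2415), and dark zone replicate 3 was high for Psmb9 (1727, others 1539 to 1560). Each of the H2-DMa and H2-Oa values of light zone replicate 1 lay on the side away from the dark zone, and both genes kept their calls without that array.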

How the results depend on the processing

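The direction of all 8 member genes and 16 member probe sets was the same under every alternative run. All 136 alternative values of the member genes kept the sign, and 132 kept the call; the 4 lost calls were of H2-Aa (limma adjusted p = 0.022 at a threshold of 0.01, and 0.051 to 0.066 in the others). The count of member genes called was 7 to 8 when single arrays were left out, 7 at an adjusted p under 0.01 and 7 with a repeated quantile normalization. The count of member probe sets was 13 to 14 without single arrays and 15 with a trended variance. With single arrays left out, the other class II genes gave 11 to 12 higher in the light zone and 3 to 4 in the dark zone, the class I genes 9 to 14 and 1, and all genes 2342 to 2509 and 1706 to 1914. Averaged probe sets moved the other class II genes to 7 and 5, and reversed Ctsb (0.05), Sppl2a (0.23), the ratio of H2-Aa to H2-Ab1 (-0.06) and that of H2-DMa to H2-DMb2 (-0.14); their probe sets disagree, and the cause was not tested. Ctsl, not called, ranged from -0.13 to 0.01 without single arrays, turning without dark zone replicate 1. An adjusted p under 0.01 gave 8 class I genes higher in the light zone and 1316 genes higher in the dark zone overall. The labels do not say that a replicate number marks a shared animal, batch or day, and the numbers were not taken as pairs, since only 3 of 4 same-numbered pairs of arrays deviated together from their zone means with a correlation above 0.1 (range 0.06 to 0.24). Pairs of unlike number ran from -0.15 to 0.09 and 7 of 8 arrays correlated best with their own number, a hint from the data that some numbers may share a source. With the replicate number as a block, 8 member genes and 13 member probe sets were called (the brightest of H2-Aa lost, adjusted p = 0.062), 12 and 3 other class II genes, 14 and 1 class I genes, and 2699 and 2088 genes in all; for the ratios the paired permutation cannot go below 0.125. Ratios without single arrays ranged from -0.67 to -0.60 for H2-Oa to H2-Ob, -0.36 to -0.30 for H2-Oa to H2-DMa, 0.42 to 0.49 for H2-Ob to H2-DMb2 and 0.21 to 0.27 for H2-Aa to H2-Ab1, with no test, as 3 against 4 arrays cannot reach 0.05. Values near the floor of the arrays understate differences.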
